A study of Mus musculus with 60 samples.

Results

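Vitamin B6 lack in the striatum of wild-type (WT) mice was measured in 10 of the 60 libraries of a mouse brain RNA-seq study: 5 from mice on a vitamin B6-lacking diet and 5 from mice on a normal diet. These were all the libraries labelled as WT striatum on either diet, so no measured value entered the choice. The study crossed genotype (WT or knockout, KO, of Glo1) with diet and took prefrontal cortex, striatum and hippocampus from each animal, with 5 mice per combination. The lacking diet held 5 µg and the normal diet 1.4 mg of vitamin B6 per 100 g of pellets, and the diets were given from 8 to 12 weeks of age. The mice compared here were all labelled WT, so of the labelled genotype, tissue and diet only the diet differed between the groups. RNA integrity, also labelled, is compared below. All 10 libraries had the same batch label, 2, and the KO libraries all had another. Each library came from a separate mouse. Strain and sex were not given in the sources used here.

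Vitamin B6 enters cells as several vitamers, and pyridoxal kinase (Pdxk) takes part in turning these into pyridoxal 5'-phosphate (PLP). PLP is the cofactor of aminotransferases, of decarboxylases and of enzymes of serine, glycine and sulfur amino acid metabolism. The striatum is made up mostly of GABA-producing medium spiny neurons, whose transmitter is made by the PLP-dependent glutamate decarboxylases Gad1 and Gad2 and broken down by the PLP-dependent aminotransferase Abat.

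The vitamin level given in the labels separated the diets. It was 3.94, 3.02, 3.78, 3.78 and 4.86 ng/µl in the mice on the lacking diet and 65.63, 58.25, 59.94, 59.94 and 77.48 ng/µl in the mice on the normal diet, in each case ordered by mouse number (225, 226, 241, 246 and 259, then 272, 273, 283, 286 and 317). The highest level on the lacking diet lay far below the lowest on the normal diet, and the means of 3.88 ± 0.656 (SD, n = 5) and 64.2 ± 7.91 ng/µl (SD, n = 5) differed 16.6-fold (two-sided exact permutation test, p = 0.00794, the smallest that 5 against 5 can give). Mice 241 and 246 had the same listed value, as did mice 283 and 286, and the labels did not name the material that was measured.

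Library totals were between 8730171 and 13384356 counts. RNA integrity (RIN) averaged 8.14 ± 0.351 on the lacking and 8.68 ± 0.205 on the normal diet (SD, n = 5 each; exact permutation p = 0.0397, 0.0556 when adjusted over RIN and total), and the mean total was 12.2 M against 10.4 M counts (exact permutation p = 0.0556, adjusted 0.0556). RIN was thus lower and depth higher on the lacking diet. The part of depth in the gene-level differences was not tested, and that of RIN was examined by a fit with RIN as a covariate. Mouse 273 stood apart on the first principal component, at 37.0 against -17.4 to 11.6 for the other 9 libraries, and mouse 226 was the highest on the second, at 22.8 against -14.3 to 13.4. Glo1 had 299 to 607 counts in these libraries and 2 to 10 in KO striatum, as the genotype labels state. The tissue label matched its markers in the WT libraries. Each of 10 medium spiny neuron genes was higher in all 10 WT striatal libraries than in any WT cortical or hippocampal one. Among these genes were the dopamine receptors Drd1 and Drd2 and the neuropeptide precursor Penk.

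No gene passed the threshold for a difference between the diets in WT striatum. Among 13311 genes tested with edgeR's quasi-likelihood test, 0 (0%) had a Benjamini-Hochberg (BH) adjusted p under 0.05, and the smallest adjusted p was 0.9996. At an unadjusted p under 0.05 there were 387 genes (2.91%), of which 192 (1.44%) were higher and 195 (1.46%) lower on the lacking diet, against 666 expected if no gene differed. Without mouse 317 the count at the unadjusted level was 590, and still 0 passed the threshold. DESeq2 gave 398 and limma on log2(RPKM + 1) 400 at that unadjusted level, and both gave 0 after adjustment. The 5 values of one diet all lay above the 5 of the other for 98 genes (0.736%), 47 (0.353%) higher and 51 (0.383%) lower on the lacking diet. The typical difference was small: the median absolute log2 fold change was 0.083, the 95th percentile 0.38 and the largest 1.59.

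None of the genes that handle or use vitamin B6 passed the threshold. Of 67 genes listed in 4 groups, 64 were in the table and 53 had enough counts to be tested. The groups also hold some related genes: the riboflavin enzymes Rfk and Flad1, Pisd, which does not use PLP, and the regulators Azin1 and Azin2. None of the 53 had an unadjusted p under 0.05, against 2.91% of all genes, and for none did the values of the diets fail to overlap, against 0.736%. Among them, 31 were higher and 22 lower on the lacking diet (of all genes 49.6% were higher), with a median log2 fold change of 0.021 against -0.0014 over all genes. The 95% interval lay inside a 1.5-fold change either way for 41 of the 53 (77.4%, against 78.4% of all genes) and inside 2-fold for 49 (92.5%, against 94%).

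**Figure D1:**
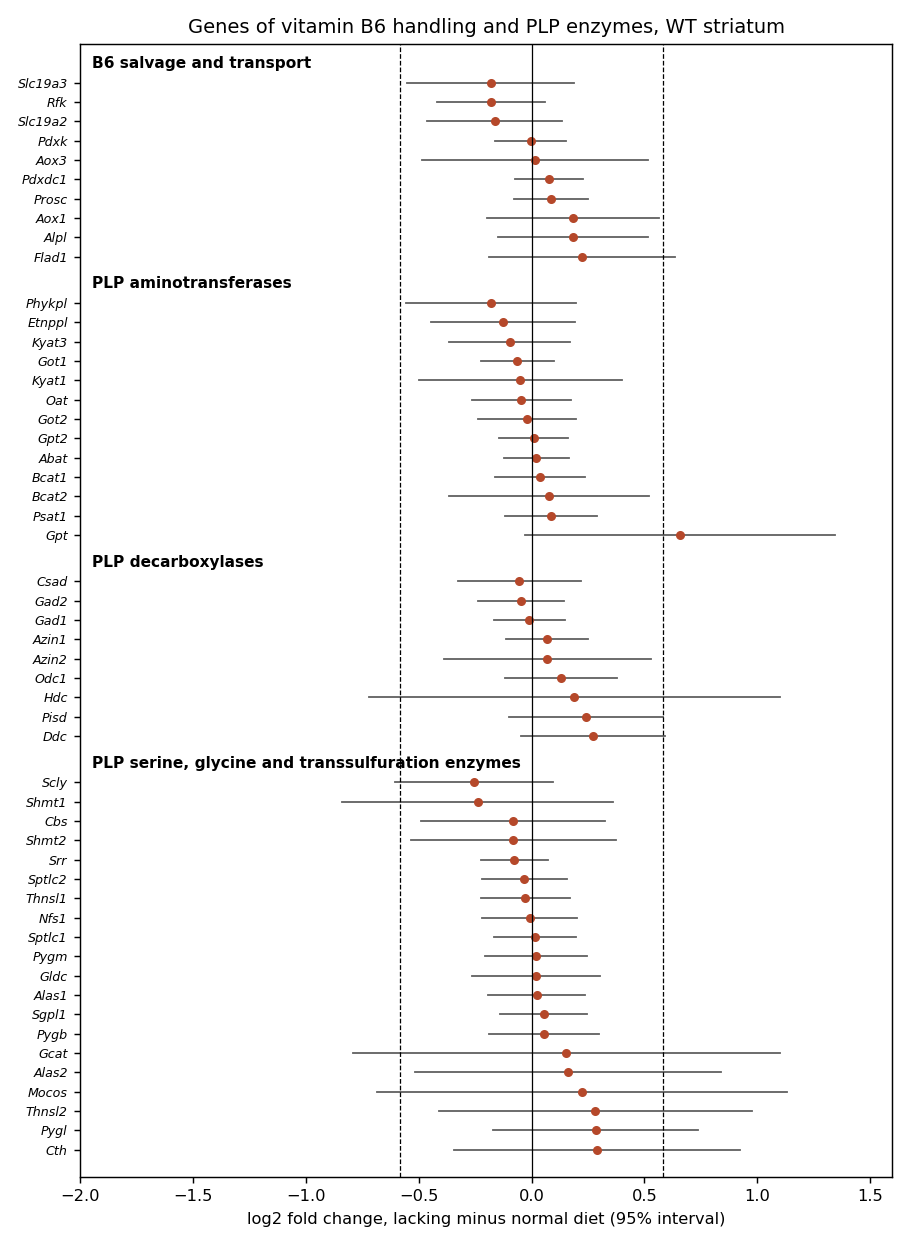
Each point is the log2 fold change (lacking minus normal diet) of 1 gene, for 52 of the 53 tested genes in 4 groups, with its 95% interval as a line; dashed lines mark a 1.5-fold change in either direction. All 52 intervals cross 0, and 40 lie between the dashed lines.

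Pdxk, the kinase that phosphorylates B6 vitamers (chr10:78436744-78464975, minus strand, build mm10), had 185, 158, 184, 164 and 180.2 CPM (counts scaled to the library total and TMM factor) on the lacking diet and 187, 157, 181, 167 and 180.3 on the normal diet. The ranges coincided almost entirely, and the log2 fold change was -0.0029 (95% interval -0.16 to 0.15; adjusted p = 0.9996), which keeps a change within 0.895- to 1.11-fold. In the annotation 39% of Pdxk's exon bases are shared with a gene on the opposite strand, and since strand-specific counting is not stated its level is uncertain to that extent. The gene of the PLP-binding protein, listed under its older symbol Prosc, had 57.1, 56.2, 59.5, 52.6 and 61.1 CPM against 46.99, 56.1, 51.8, 53.00 and 61.8 CPM, and the values overlapped (log2 fold change 0.086, 95% interval -0.078 to 0.25).

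Alpl, the phosphatase that frees B6 vitamers outside the cell, had 7.17, 5.18, 6.83, 4.96 and 5.78 CPM against 4.46, 4.13, 5.03, 7.18 and 5.30 CPM, and mouse 286 on the normal diet had the highest of all (log2 fold change 0.18, 95% interval -0.15 to 0.52). The thiamine carriers Slc19a2 and Slc19a3, the aldehyde oxidases Aox1 and Aox3, the riboflavin enzymes Rfk and Flad1 and Pdxdc1 were other tested members of this group. Their log2 fold changes were between -0.18 for Slc19a3 and 0.22 for Flad1. The group of 11 had 7 members higher and a median of 0.077, which was -0.0068 when RIN was a covariate. Aox4 reached at most 11 counts in a library and was not tested, and the phosphatase gene Pdxp had no row under that symbol.

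Neither glutamate decarboxylase, the enzymes that make GABA, passed the threshold. Gad1 (chr2:70553072-70602014) had 722, 794, 685, 700.0 and 646 CPM on the lacking and 749, 802, 661, 684 and 677 CPM on the normal diet. The values interleaved, with a log2 fold change of -0.010 (95% interval -0.17 to 0.15), within 0.891- to 1.11-fold. Gad2 (chr2:22622205-22693874) had 1059, 1086, 931, 1076 and 917 CPM against 1023, 1252, 991, 984 and 992 CPM, where mouse 273 was the highest library of the 10. Its log2 fold change was -0.048 (95% interval -0.24 to 0.14), within 0.847- to 1.1-fold. Per length, Gad2 was the more abundant, at 179 ± 14.7 RPKM in normal-diet mice and 176 ± 11.1 RPKM in lacking-diet mice (SD, n = 5 each), and Gad1 followed at 93.8 ± 5.58 and 94.9 ± 4.85 RPKM.

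Other decarboxylases were expressed at lower levels. Ddc, which makes dopamine and serotonin from their precursors, had 6.18, 5.10, 5.37, 4.16 and 5.13 CPM on the lacking diet and 4.002, 3.94, 4.31, 4.47 and 4.70 on the normal diet. Mouse 246 was the 1 lacking-diet animal below part of the normal-diet range, and the log2 fold change was 0.27 (95% interval -0.046 to 0.59; edgeR adjusted p = 0.9996). Odc1 (ornithine decarboxylase, polyamine synthesis) and Pisd (phosphatidylserine decarboxylase, which does not use PLP) had log2 fold changes of 0.13 and 0.24, and Csad, of taurine synthesis, had -0.055. For Hdc, the histamine-forming enzyme at under 1 CPM, the interval ran from -0.72 to 1.101 and so did not bound even a 2-fold change. Of the 9 tested members of this group 6 were higher, with a median of 0.070. Azin1 and Azin2 in this group are regulators related to ornithine decarboxylase rather than enzymes.

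Among the aminotransferases, Abat, which degrades GABA, had 539, 546, 541, 542 and 528 CPM on the lacking diet and 519, 507, 556, 529 and 547 CPM on the normal diet. The lacking-diet values lay inside the normal-diet range, the log2 fold change was 0.021 and the 95% interval (-0.12 to 0.16) allowed 0.918- to 1.12-fold. Got1, the cytosolic aspartate aminotransferase, had 188, 194, 206, 190.4 and 201 CPM against 219.6, 177, 208, 199.8 and 220.1 CPM (log2 fold change -0.064, 95% interval -0.23 to 0.097). Psat1, of serine synthesis, had 94.7, 86.2, 92.5, 94.03 and 97.6 CPM against 90.4, 74.6, 87.2, 97.9 and 87.9 CPM, with mouse 273 the lowest (log2 fold change 0.086, 95% interval -0.12 to 0.29).

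The member with the smallest p of all 53 was Gpt, an alanine aminotransferase, at 1.15, 1.32, 2.53, 1.20 and 2.03 CPM on the lacking and 0.800, 1.18, 1.03, 1.246 and 0.899 CPM on the normal diet. Mice 226, 241 and 259 lay above every normal-diet mouse and the other 2 lacking-diet mice lay among them (log2 fold change 0.66, 95% interval -0.030 to 1.35; edgeR adjusted p = 0.9996). At about 1 CPM it was the least certain aminotransferase, and its interval reached 2.54-fold. The mitochondrial alanine aminotransferase Gpt2, at means of 45.5 and 45.3 CPM, had 0.009 (95% interval -0.14 to 0.16). Of the 13 aminotransferases tested, 6 were higher; their median of -0.018 was 0.0071 without TMM factors. Aadat, Agxt, Agxt2 and Tat were not tested, and Agxt and Agxt2 had 0 counts in all 10 libraries.

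Of the 20 tested enzymes of serine, glycine, sulfur, sphingolipid, haem and glycogen metabolism, 12 were higher and the median was 0.019. Srr, which makes the NMDA receptor co-agonist D-serine, had 204, 199.8, 218, 214 and 228 CPM against 234, 237, 226, 213 and 212 CPM (log2 fold change -0.076, 95% interval -0.22 to 0.071), and 30% of its exon bases are shared with opposite-strand genes. Cbs, which commits homocysteine to cysteine synthesis, had 6.84, 5.01, 5.29, 8.64 and 8.87 CPM against 6.97, 5.91, 6.46, 9.90 and 7.19 CPM (log2 fold change -0.083, 95% interval -0.49 to 0.32). The values of both genes overlapped between diets. Cth, the next enzyme after Cbs, had a log2 fold change of 0.29 with an interval of -0.34 to 0.93. Its means were 1.76 CPM on the lacking and 1.43 CPM on the normal diet. The glycine decarboxylase Gldc had a log2 fold change of 0.021 (-0.26 to 0.30).

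The size of change that the 10 libraries leave inside an interval depended on expression level. Over all 13311 genes the 95% interval lay inside a log2 change of 0.32 for 5494 (41.3%), inside 1.5-fold for 10434 (78.4%) and inside 2-fold for 12515 (94%). For the 442 genes under 1 CPM the median far end of the interval was 2.24-fold, for the 4002 between 1 and 10 CPM it was 1.53-fold, for the 6534 between 10 and 100 CPM 1.24-fold, and for the 2333 above that 1.18-fold. Of the 29 B6 and PLP genes at 10 CPM or more, 28 had an interval inside 1.5-fold and 23 inside a log2 change of 0.32; the exception was Flad1, whose interval ended at 0.64. The 4 members whose interval passed 2-fold were Gpt, Hdc, Gcat and Mocos.

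**Figure D2:**
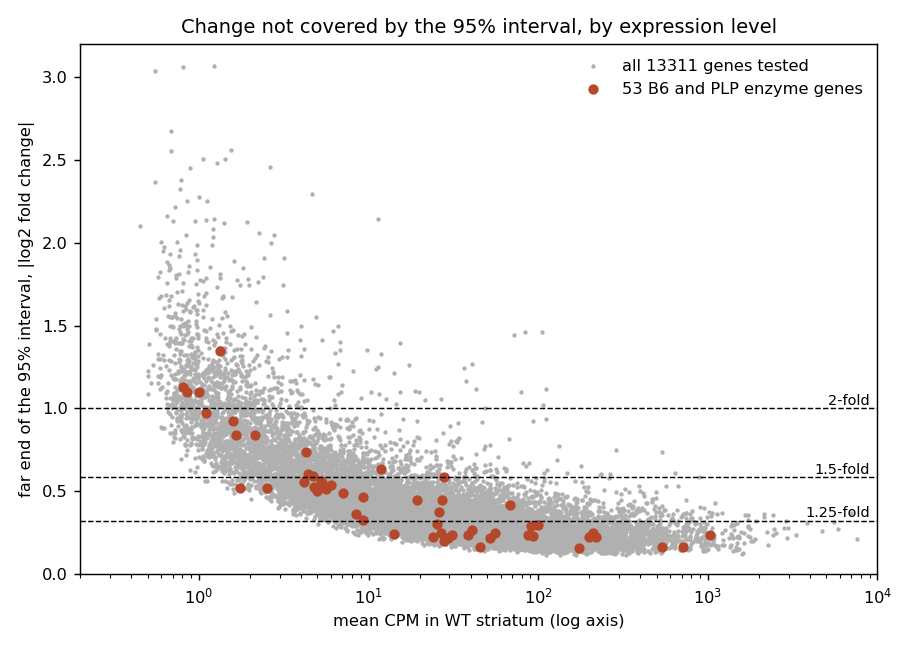
Each grey point is 1 of 13311 genes, placed by mean CPM over the 10 libraries (log axis) and by the far end of its 95% interval as an absolute log2 fold change; the 53 B6 and PLP genes are in red and dashed lines mark log2 changes of 0.32, 0.58 and 1 (2-fold). The bound narrows with expression, from a median of 2.24-fold under 1 CPM to 1.18-fold at 100 CPM and above.

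These intervals hold for 1 gene at a time. When they were widened to cover all 13311 genes jointly (Bonferroni), 1 (0.00751%) lay inside a log2 change of 0.32, 2360 (17.7%) inside 1.5-fold, 7893 (59.3%) inside 2-fold and 12030 (90.4%) inside 4-fold. On that scale 10 of the 53 B6 and PLP genes lay inside 1.5-fold and 27 inside 2-fold, among them Pdxk at -0.46 to 0.45, Gad1 at -0.46 to 0.44, Gad2 at -0.60 to 0.50 and Abat at -0.40 to 0.44. The narrowest 95% intervals, from lower to upper end, among genes with at least 10 CPM belonged to the inositol phosphatase Inpp4a (-0.058 to 0.16), the synaptic scaffold Dlg3 and Serinc3. The widest belonged to Gm10800 (-1.55 to 2.14), the proliferation marker Mki67 (-0.63 to 1.251) and the vesicular glutamate transporter Slc17a7 (-1.10 to 0.63).

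Mki67 had 19.8, 4.60, 8.36, 11.8 and 18.1 CPM on the lacking and 11.3, 18.2, 7.49, 6.52 and 7.29 CPM on the normal diet, and the values interleaved. Among the immediate early genes, which neurons induce with activity, Cyr61 and the orphan nuclear receptor Nr4a2 had the smallest p. Nr4a2 had 62.99, 22.4, 60.2, 67.6 and 90.1 CPM on the lacking diet and 121, 112, 115, 104 and 78.3 CPM on the normal diet. Mouse 226 was the lowest at 22.4, and the groups overlapped through mice 259 and 317 (log2 fold change -0.80, 95% interval -1.46 to -0.15; edgeR adjusted p = 0.9996).

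The genes of smallest p in each direction, none past the threshold, were taken by rank among genes with a mean of at least 1 CPM. Higher on the lacking diet were Fbln7, Hap1, Zcchc12, Nrip2, Cox16 and Dpy19l3, and lower were Ecm2, Slc6a20a, Adgrl4, Enpp1, Cp and Igf2. All 12 had an adjusted p of 0.9996. In 9 of them the diets did not overlap, against 0.736% of all genes. Hap1, Slc6a20a and Cp were the exceptions. Since rank by p chose the 12 from these same values, their separation and fold changes describe the extremes of this comparison and are no separate evidence.

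**Figure D3:**
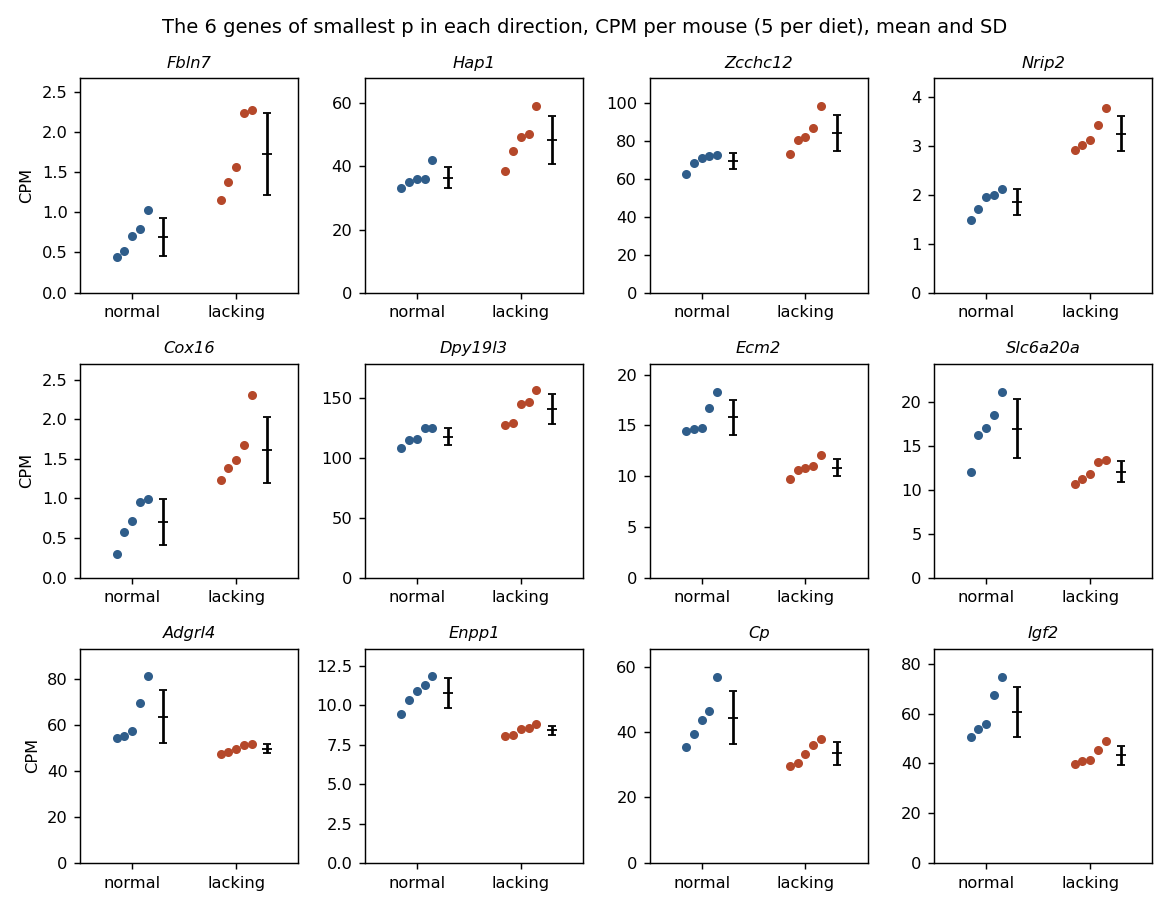
Points are CPM per mouse (5 per diet, sorted within a diet) for the 6 genes of smallest p in each direction, with mean and SD beside them; each y axis starts at 0. The groups are separate in 9 of the 12 panels and overlap for Hap1, Slc6a20a and Cp. The genes were chosen by p from these same values, and 0.736% of all genes have separate groups.

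The smallest p belonged to Ecm2, an extracellular matrix gene (chr13:49504810-49532789). It had 10.8, 10.6, 11.05, 12.1 and 9.68 CPM on the lacking and 14.7, 18.3, 16.7, 14.4 and 14.7 CPM on the normal diet. Every lacking-diet mouse was below every normal-diet mouse, with a log2 fold change of -0.54 (95% interval -0.80 to -0.28; edgeR adjusted p = 0.9996). DESeq2 gave Ecm2 an adjusted p of 0.497, the lowest it had in any of the 18 alternatives. The log2 fold change of Ecm2 was -0.0045 in KO striatum, -0.087 in WT prefrontal cortex and -0.23 in WT hippocampus, and its difference between genotypes was not past the threshold (edgeR adjusted p = 0.99995).

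Fbln7, a secreted fibulin (chr2:128862981-128897034), had low counts, at 1.57, 1.15, 1.38, 2.24 and 2.28 CPM on the lacking and 1.03, 0.787, 0.513, 0.440 and 0.699 CPM on the normal diet. The groups were separate but adjacent, with mouse 226 at 1.15 and mouse 272 at 1.03, and the log2 fold change was 1.33 (95% interval 0.58 to 2.08). Nrip2, a nuclear receptor interacting protein, had 3.13, 3.78, 2.92, 3.44 and 3.01 CPM against 1.71, 1.48, 1.95, 2.13 and 2.00 CPM, a log2 fold change of 0.80 (95% interval 0.32 to 1.28). Cox16, a cytochrome oxidase assembly factor, had 1.48, 2.30, 1.23, 1.68 and 1.38 CPM against 0.572, 0.295, 0.718, 0.953 and 0.999 CPM (log2 fold change 1.15), and 56.8% of its exon bases are shared with the same-strand gene model Gm20498, so its counts are uncertain.

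The other 3 higher genes were well expressed and differed little. Hap1, the huntingtin-associated protein of neurons, had 59.04, 38.5, 44.8, 49.3 and 50.4 CPM on the lacking and 35.1, 33.1, 36.00, 36.1 and 42.1 CPM on the normal diet (log2 fold change 0.41, 95% interval 0.17 to 0.64). Mouse 317 on the normal diet exceeded mouse 226 on the lacking diet. Zcchc12 (X chromosome) averaged 84.3 ± 9.39 against 69.3 ± 4.07 CPM, and Dpy19l3 averaged 141 ± 12.3 against 118 ± 6.96 CPM (SD, n = 5 each), with log2 fold changes of 0.28 and 0.26.

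Of the lower genes, Igf2, an insulin-like growth factor made by the meninges and choroid plexus in adult brain, had 41.4, 45.2, 49.2, 39.9 and 40.9 CPM against 55.9, 50.8, 67.6, 74.8 and 53.95 CPM, with mouse 286 the highest (log2 fold change -0.49, 95% interval -0.78 to -0.20). Of its exon bases 64.5% are shared with other gene models, so its counts are uncertain. Slc6a20a, a proline transporter, had 11.3, 13.2, 11.8, 13.4 and 10.7 CPM against 12.01, 17.03, 18.6, 21.2 and 16.3 CPM, where mouse 286 was again highest and mouse 272 fell among the lacking-diet mice (log2 fold change -0.50). Cp, which encodes the copper oxidase ceruloplasmin, averaged 33.5 ± 3.45 against 44.3 ± 8.12 CPM. Adgrl4, an endothelial adhesion receptor, averaged 49.6 ± 1.91 against 63.5 ± 11.5 CPM, and Enpp1, an ectonucleotidase, 8.41 ± 0.307 against 10.8 ± 0.942 CPM (SD, n = 5 each).

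The 12 leading genes had the same sign of diet change in KO striatum, from other mice, in 9 of 12, with 0 at an unadjusted p under 0.05. In WT prefrontal cortex the sign was shared by 11 of 12 with 0 at that level, and in WT hippocampus by 8 of 12 with 1, Adgrl4 (log2 fold change -0.34). Those regions came from the same 10 mice. Over all genes the share of equal signs was 53.1% for KO striatum, 52.8% for prefrontal cortex and 58.3% for hippocampus. The corresponding correlations across genes were 0.079, 0.051 and 0.091; genes are not independent replicates.

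The diet effect was not shown to differ by genotype or region. For the difference between WT and KO striatum, 0 genes (0%) passed the adjusted threshold and 226 (1.7%) had an unadjusted p under 0.05. Genotype and batch label coincided, so their parts in that difference cannot be told apart. KO striatum itself had 0 genes past the threshold and 224 (1.68%) at the unadjusted level. For striatum against prefrontal cortex in WT mice, 0 of 13663 genes passed and 277 (2.03%) were under 0.05 unadjusted, and for striatum against hippocampus 0 passed and 353 (2.58%) were under 0.05. With the mouse as a block the 2 region comparisons still gave 0, with 261 and 354 genes at the unadjusted level.

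The genes that define medium spiny neurons differed little between diets. The 32 tested dopamine and medium spiny neuron genes had a median log2 fold change of -0.0081, 15 higher and 17 lower. At an unadjusted p under 0.05 there were 0 of the 32, near the share of all genes (2.91%). An interval inside 1.5-fold was found for 96.9%, against 78.4% of all genes. That share rises with expression: it was 96.4% of genes at 10 to 100 CPM and 99.3% at 100 CPM and above. Drd1, the dopamine receptor of direct-pathway neurons, had 466, 540.3, 437, 450.1 and 428 CPM on the lacking and 494, 521, 480.2, 512 and 469 CPM on the normal diet. Mouse 226 was the highest of the 10, and the log2 fold change was -0.093 (95% interval -0.26 to 0.069). Pde10a, a phosphodiesterase abundant in these neurons, had -0.045.

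Receptors for GABA and glutamate had medians slightly below that of all genes. Of 15 GABA receptor subunits tested, 4 were higher, with a median of -0.053 (0.0063 without mouse 273). Gabrq was the 1 at an unadjusted p under 0.05 (4.21 ± 2.68 against 2.13 ± 0.643 CPM, SD, n = 5 each). Of 24 glutamate receptor genes, 7 were higher with a median of -0.022 and 0 under 0.05. Of all genes 2.91% were under 0.05, so 0 or 1 such member in lists of these sizes is near that share. Slc6a13, a GABA and taurine carrier expressed in meninges, had 0.495, 1.07, 0.844, 0.720 and 1.14 CPM on the lacking and 1.83, 0.492, 1.74, 2.93 and 2.00 CPM on the normal diet (log2 fold change -1.09, 95% interval -1.81 to -0.37; edgeR adjusted p = 0.9996). The 28 synaptic vesicle genes had 10 higher and a median of -0.042, with the vesicular glutamate transporter Slc17a6 at -0.67 and under 0.05 unadjusted, and the 34 potassium channels a median of -0.055 with Kcnma1 at -0.17 and under 0.05 unadjusted.

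Metabolic lists had medians near that of all genes in the fit without RIN, and several were lower with RIN as a covariate. Complex I subunits (37 tested) had a median log2 fold change of -0.011 (-0.064 with RIN). The subunits of the other respiratory complexes (39 tested) had 0.012 (-0.053 with RIN). Each had 0 members at an unadjusted p under 0.05 (2.91% of all genes). Mitochondrial ribosomal proteins had 0.0082 (-0.039 with RIN) and glycolysis and TCA cycle genes 0.0037 (-0.058 with RIN). The methylglyoxal-detoxifying enzymes had -0.055 (13 of 13 with an interval inside 1.5-fold) and the 27 amino acid response genes -0.011 (-0.092 with RIN). The homocysteine and folate genes, which meet PLP-dependent transsulfuration, had 12 of 19 higher and a median of 0.024. Of 12 kynurenine pathway genes 4 could be tested, all 4 lower, at a median of -0.074. Of 46 glutathione and antioxidant genes, 21 were higher and the median was -0.034 (-0.068 with RIN). Gstp1 and catalase (Cat) were lower at an unadjusted p under 0.05 (-0.48 and -0.30), as were 1.46% of all genes.

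**Figure D4:**
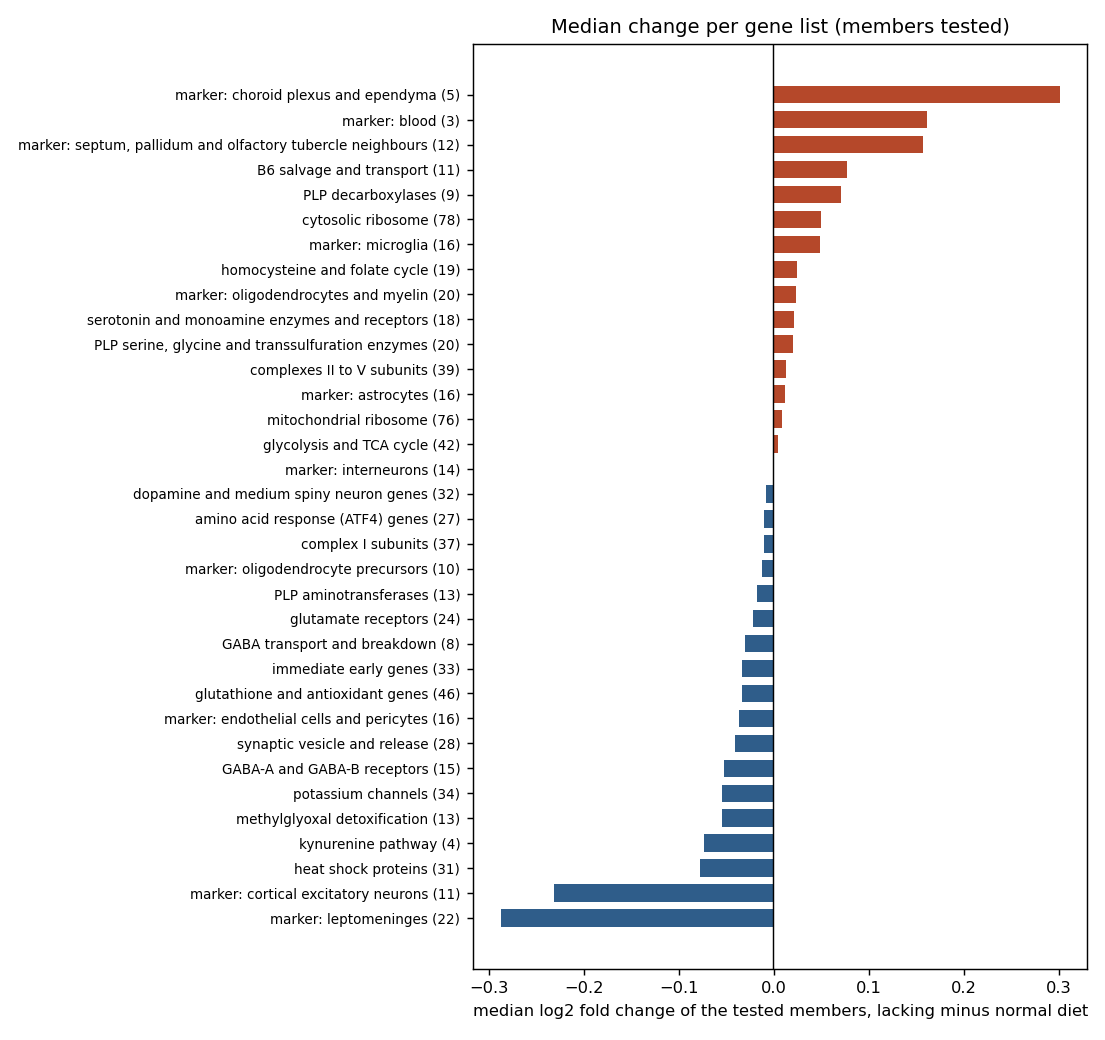
Bars are the median log2 fold change (lacking minus normal diet) of the tested members of each list, with the number tested in brackets; the vertical line is the median of all genes, -0.0014. Medians of the B6 and PLP lists lie between -0.018 and 0.077, and the longest bars are the markers of leptomeninges at -0.29 and of choroid plexus and ependyma at 0.30. The leptomeningeal list was chosen after the leading genes were seen.

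In 29 of the 33 lists chosen by function or cell type, the later leptomeningeal list not counted, the median was within 0.1 of 0. Of the 33, 18 had no member at an unadjusted p under 0.05, a level that 2.91% of all genes reached. Of 78 cytosolic ribosomal protein genes, 55 were higher (70.5%, against 49.6% of all genes). Their median of 0.050 was -0.034 with RIN as a covariate, 0.022 without mouse 241 and 0.089 without mouse 286. At an unadjusted p under 0.05, 5 were higher and 1 lower, against 1.44% higher and 1.46% lower of all genes. Ribosomal protein genes have near-identical processed copies, so their counts are uncertain. Rpl11, the smallest p among them, had 61.3, 54.5, 63.2, 54.5 and 54.9 CPM against 48.4, 36.2, 46.2, 52.2 and 50.1 CPM with no overlap (log2 fold change 0.31, edgeR adjusted p = 0.9996). Of 31 heat shock genes, 8 were higher with a median of -0.078 (-0.038 without mouse 241), and the co-chaperone Stip1 had 146, 151, 158, 134 and 170.2 CPM against 174, 162, 189, 168 and 203 CPM (log2 fold change -0.24, edgeR adjusted p = 0.9996). Mouse 259 on the lacking diet exceeded some normal-diet mice for Stip1, and RIN differed with diet beside both lists; its part was not tested beyond the covariate fit.

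The 4 marker lists for tissue bordering the striatum had medians beyond 0.1, and in bulk tissue fewer cells of a type and less RNA per cell cannot be told apart. Of 11 cortical excitatory neuron markers, 0 were higher on the lacking diet and the median was -0.23. At an unadjusted p under 0.05 there were 2, both lower (1.46% of all genes), among them Nrgn. For 2 markers the values of the diets did not overlap (0.736% of all genes), Neurod2 among them. Neurod2 had 4.77 to 11.8 CPM on the lacking and 12.7 to 18.1 CPM on the normal diet (log2 fold change -0.66, 95% interval -1.33 to 0.0095, edgeR adjusted p = 0.9996). Nrgn, which encodes the calmodulin-binding postsynaptic protein neurogranin, had 765, 857, 965, 830.2 and 805 CPM on the lacking and 1023, 1002, 994, 894 and 854 CPM on the normal diet. Mouse 241 on the lacking diet exceeded mice 286 and 317 on the normal diet, and the groups overlapped (log2 fold change -0.18, 95% interval -0.34 to -0.0089; edgeR adjusted p = 0.9996). Slc17a7, the cortical vesicular glutamate transporter, had 56.3, 20.1, 85.1, 86.4 and 115 CPM against 78.1, 52.1, 109, 81.00 and 105 CPM, overlapping widely apart from mouse 226 (log2 fold change -0.23, 95% interval -1.10 to 0.63). The summed level of all 12 listed genes, tested or not, was 1082 to 1332 CPM on the lacking and 1269 to 1459 CPM on the normal diet. The list's median was -0.53 without mouse 246, -0.46 without mouse 259, -0.36 without mouse 273, -0.15 without mouse 225 and -0.38 with RIN as a covariate.

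Of 12 markers of septum, pallidum and olfactory tubercle, 10 were higher, with a median of 0.16. Zic1, a septal transcription factor, had 51.1, 29.8, 24.9, 49.8 and 23.4 CPM against 28.4, 33.2, 26.5, 25.7 and 23.1 CPM: mice 225 and 246 stood above the other 8 libraries (log2 fold change 0.39, edgeR adjusted p = 0.9996). The list's sum was 193 to 256 CPM on the lacking and 194 to 214 CPM on the normal diet, and its median was 0.10 without mouse 225 or mouse 246 and 0.060 with RIN as a covariate. Over all 12 choroid plexus and ependymal markers, tested or not, the sum was 26.5 to 40.1 CPM on the lacking and 23.7 to 30.9 CPM on the normal diet. Of these markers 5 were tested and all 5 were higher (median 0.30). That median was 0.16 without mouse 259 and 0.47, 0.50, 0.55 and 0.57 without mouse 283, 241, 273 and 226 in turn, and 0.52 with RIN as a covariate. The choroid plexus gene Ttr and 6 other markers of that list were not among the genes tested.

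The leptomeningeal list was put together after Igf2 and Slc6a20a were seen among the leading genes, so its direction is no separate evidence. Of 22 tested members 4 were higher (49.6% of all genes were), and the median was -0.29. At an unadjusted p under 0.05 there were 7, all lower (1.46% of all genes). Igf2 and Slc6a20a, which prompted the list, are among the 7, so that count is no separate evidence either. The sum over all 24 listed genes was 190.0 to 230.1 CPM on the lacking diet and 190.1 to 367 CPM on the normal diet, the highest being mouse 286. Without mouse 286 the median was -0.058. The part that tissue bordering the striatum has in the single-gene differences was not tested.

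**Figure D5:**
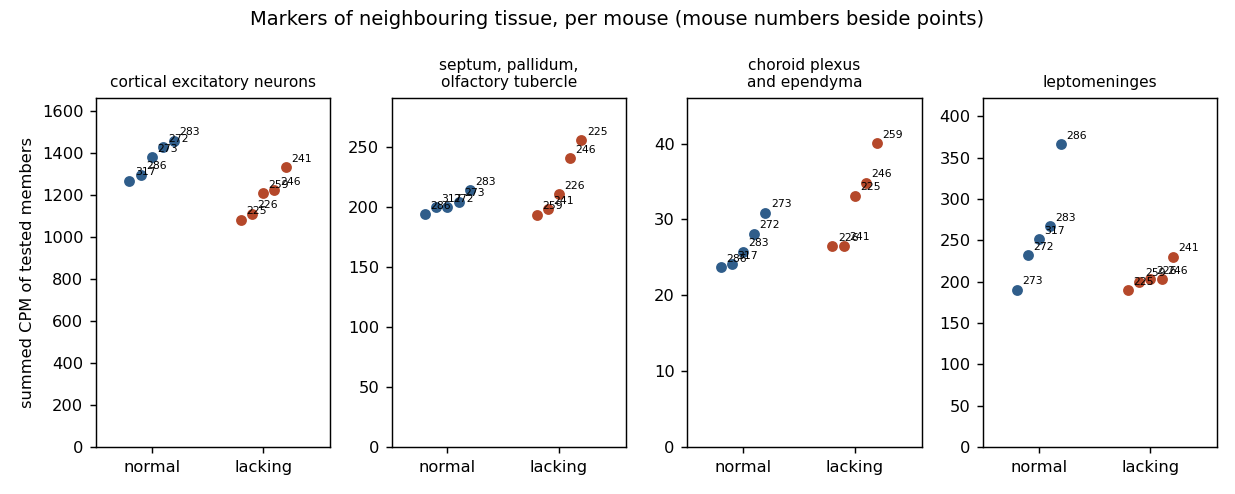
Points are the summed CPM per mouse of all listed members of 4 marker lists, tested or not, although the axis label says tested members. Mouse numbers stand beside the points (5 mice per diet), and each y axis starts at 0. The cortical sums are 1082 to 1332 CPM on the lacking and 1269 to 1459 CPM on the normal diet, and mouse 286 has the highest leptomeningeal sum at 367 CPM.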

How the data were processed

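Poly(A)-selected RNA was sequenced from 1 end (75 bp), per the labels' protocols. Reads were processed with STAR 2.7.1a, HTSeq 0.9.1 and build mm10, per the submitters' processing notes. The authors deposited raw counts per gene and RPKM values for 21999 genes. Each deposited RPKM equalled the count over a whole-number length and the column total for all 18514 genes with counts (tolerance 1e-06). The table held 13 mitochondrially encoded genes with 0 counts, which were not tested. All value columns matched a sample.

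Counts of the 20 striatum libraries were fitted together with edgeR 4.0.16 (R 4.3.3), with 1 mean per group, TMM factors, filterByExpr (minimum count 10, total 15) and quasi-likelihood tests. P-values were two-sided and adjusted by the Benjamini-Hochberg method over all genes (threshold 0.05). The 4 groups shared 1 estimate of the spread. The 95% intervals used standard errors derived from the F statistics (23.7 degrees of freedom). The diet-by-genotype term came from the same fit, and diet by region from the 30 WT libraries, where the same mouse number marks the same animal. RIN, library total and vitamin level were compared by exact permutation over 252 splits. The steps were tested on simulated data. Copies were checked: chi-square per gene was 3.96 to 20.2 in 20 replicate pairs. A gene with 3 counts lay at 0.224 to 0.344 CPM (counting error only).

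The members and lists were chosen with earlier results of these data known. Genes named were all tested members of the 4 B6 and PLP lists, the 6 of smallest p per direction (mean at least 1 CPM), the 3 widest and 3 narrowest intervals (mean at least 10 CPM), and in other lists up to 3 of smallest p and 3 of highest level; some genes under this rule are not reported here. Positions and exon overlaps came from GENCODE M21 (GRCm38, the same assembly as mm10), which matched 219 of 220 named genes by symbol. Alternatives were DESeq2 1.42.0, limma 3.58.1 on log2(RPKM + 1), no TMM factors, no filter, a minimum mean of 1 CPM, a RIN covariate, only the 10 libraries, a block for the mouse, and leaving out each replicate. Leaving out mice 226 and 273 together and the leptomeningeal list were chosen after seeing the data.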

Additional observations from a re-analysis of the deposited data

Results flagged for a closer look

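Among 80 sets of 5 values checked for a sample far from the others (the 2 diets for the printed genes, marker sums, RIN, totals and vitamin level), chance would give about 1 in 20, or 4. There was 1: Gad2 in the normal-diet mouse 273, at 1252 CPM against 984 to 1023 CPM in the other 4 normal-diet mice. That library also stood apart on the first principal component. Without replicate 273 and without lacking-diet mouse 226, the count of genes past the threshold was 0, as with all libraries.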

How the results depend on the processing

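The count of genes past the threshold was 0 for diet in WT striatum, for diet by genotype and for diet by region under every alternative run. With the mouse as a replicate block the region counts were 0 and 0; same-mouse residuals correlated at a mean of 0.016 over 30 pairs of regions, against -0.0029 for 120 pairs of different mice. Genes at an unadjusted p under 0.05 numbered 262 (without mouse 283) to 590 (without mouse 317) when 1 library was left out, and 345 to 568 under the other settings. The share of genes with a 95% interval inside 1.5-fold was 60.9% with no filter and 81.3% with only the 10 libraries, and 73.4% to 76.8% with 1 library left out. The vitamin difference of -60.4 ng/µl was -56.2 ng/µl by medians, where the exact permutation p was 0.119. The levels of the diets did not overlap, but splits that mix the diets can give the same medians, which limits that p. With 1 mouse left out the difference in means was -61.9 to -57.1 ng/µl. The RIN difference of -0.54 was -0.60 by medians (exact permutation p = 0.119) and -0.68 to -0.455 with 1 library left out, losing its unadjusted threshold without mouse 273, 286 or 317. The difference in totals of 1.74 M counts was 1.32 to 2.49 M with 1 library left out and passed the threshold without mouse 286 (exact permutation p = 0.00794). Of 3952 pairs of a named gene and an alternative, 0 became a call; 70 of the 220 genes changed sign in at least 1. Of 544 pairs of a list and an alternative, 540 moved the median by no more than an SD between libraries. That SD was of the list's mean log2 CPM, averaged over the diets, and not a spread of the median. It allows wide shifts: the leptomeningeal median of -0.29 was -0.058 without mouse 286 and counted as unmoved. The cytosolic ribosomal median of 0.050 was -0.034 with RIN as a covariate and also counted as unmoved. Low counts limit the genes under 1 CPM, where the median interval reached 2.24-fold.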

Other observations

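Of 16 astrocyte markers 8 were higher on the lacking diet (median log2 fold change 0.011; Fgfr3, a growth factor receptor, 0.25 and under 0.05 unadjusted, edgeR adjusted p = 0.9996). Of 20 oligodendrocyte and myelin markers 12 were higher (median 0.023; Aspa, which breaks down N-acetylaspartate, 0.31 and under 0.05 unadjusted). Oligodendrocyte precursor markers had a median of -0.013 over 10 genes and interneuron markers -0.00041 over 14. Of 16 microglial markers 10 were higher (median 0.048), while Fcrls was lower (13.2 ± 2.19 against 17.1 ± 2.73 CPM, SD, n = 5 each; edgeR adjusted p = 0.9996). Of 16 endothelial and pericyte markers 6 were higher (median -0.037), and the 3 blood genes tested were all higher (median 0.16). With RIN, which was lower on the lacking diet, as a covariate the endothelial and pericyte median was -0.15, that of interneurons -0.11, of microglia -0.091, of blood genes -0.17, of astrocytes -0.013 and of oligodendrocytes 0.030.

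Immediate early genes had 13 of 33 higher and a median of -0.034; beside Nr4a2, Cyr61 was lower at an unadjusted p under 0.05 (log2 fold change -0.51, 95% interval -0.91 to -0.11; edgeR adjusted p = 0.9996), and Egr1 had -0.0044 with an interval of -0.44 to 0.43. Of the 18 tested serotonin and monoamine genes, 10 were higher (median 0.021). Slc18a2, the vesicular monoamine carrier, had 2.80, 0.822, 0.460, 3.36 and 0.732 CPM on the lacking diet against 1.03, 1.28, 0.308, 0.880 and 0.500 CPM; mice 225 and 246, which also had the highest Zic1, stood above the other 8 (edgeR adjusted p = 0.9996). Gm10800, which had the widest interval among genes with at least 10 CPM, had 48.6 CPM in mouse 225 and 0.0999 CPM in mouse 317.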
